A study of Mus musculus with 6 samples.

Results

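Wnt pathway components and target genes were examined in epithelial cells of the mouse small intestine that carried N-cadherin in place of E-cadherin. The genes were given as a list of 43 names and fall by role into 4 genes for ligands and their modification, 6 receptors, 11 inhibitors, 7 genes of the cytoplasmic relay and the destruction complex, 8 nuclear factors and 7 target genes. Of the 43 genes 42 had at least 1 probe set that the platform annotation pairs with that gene alone, which gave 113 of the 45101 probe sets on the array. Tcf7, a nuclear partner of beta-catenin, had no probe set named in the annotation used here. A gene was tested where a probe set reached an intensity of 16 on at least 3 of the 6 arrays, and 37 members passed, among 12994 genes in all.

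RNA was taken from epithelium that had been shaken off the small intestine in an EDTA buffer, from C57BL/6 mice aged 2 weeks (14 days), and hybridized to Affymetrix expression arrays, 1 array per sample. The 3 samples called N-cadherin replacement had the genotype Ecadflox/Ncad;Vil-Cre, that is, a floxed E-cadherin allele, an N-cadherin allele and a Cre recombinase driven by the villin promoter, which is active in gut epithelium. The 3 samples called control came from E-cadherin-positive littermates, and their alleles are not given beyond that, so it is unknown here whether they carried Vil-Cre or the N-cadherin allele. Nothing in the labels tells whether the samples were separate animals, and p-values therefore measure the spread between these samples.

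Wnt ligands bind Frizzled receptors and the co-receptors Lrp5 and Lrp6. Without a ligand, a destruction complex built on Axin and Apc, with the kinases Gsk3b and Csnk1a1, marks beta-catenin for degradation, and with a ligand beta-catenin reaches the nucleus and acts with TCF/LEF factors on target genes. In the small intestine this pathway maintains the dividing cells of the crypts, and several of its targets are inhibitors that feed back on it. Beta-catenin also binds the cytoplasmic tails of E-cadherin and N-cadherin at cell junctions, so the exchange of one cadherin for the other bears on a protein that serves both adhesion and Wnt signalling.

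The deposited intensities had a common mean of 100 on every array, taken without the lowest and highest 2%. An intensity of 16 was reached by 55.1% to 61.8% of probe sets, depending on the array. Values under 16 were set to 16 before log2 was taken. Control 2 and control 3 were close to identical (SD of the log2 ratio 0.115 over 5109 bright probe sets, against 0.347 to 0.564 for other pairs within a group) and were averaged and counted as 1 replicate, so n = 3 replacement and n = 2 control replicates in every test. Xist and Y-linked transcripts put replacement 2, replacement 3 and control 1 among females and replacement 1, control 2 and control 3 among males. Cdh1 itself, the targeted gene, was 2.09-fold lower in the replacement arrays (log2 difference -1.06, SE 0.24, limma adjusted p = 0.025). All 8 epithelial markers were well above the floor, with summed intensities of 22852 to 28601 in replacement arrays and 22141 to 22947 in control arrays. Besides Cdh1, Krt20 alone of these passed, higher in replacement arrays (log2 difference 1.35, SE 0.31, limma adjusted p = 0.0274). The 10 mesenchymal markers summed to 566 to 636 in replacement arrays, and to 1478 in control 1 against 356 and 377 in control 2 and control 3. The leukocyte markers summed to 1060 to 1700 in replacement arrays and 2693 to 3023 in control arrays, and Csf1r added most to the sum on every array. All 5 leukocyte markers tested lay below 0, with a median of -0.46. Csf1r alone of these passed (log2 difference -1.44, SE 0.29, limma adjusted p = 0.0143), and the groups overlapped in the others. Cd3e lay under the floor throughout, and Ptprc was at 11.2 to 23.5 in replacement arrays and at most 56.4 in control arrays.

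Of the 37 members tested 4 rose and 2 fell in the replacement arrays at a limma adjusted p under 0.05. That is 16.2% of the members, where 9.12% of all genes tested passed (4.46% higher and 4.66% lower). The members were chosen with earlier results of these data known, so these shares are not an independent comparison. The 4 that rose were Cd44, Sox4, Myc and Sox9, all of them listed as target genes. The 2 that fell were Apcdd1 and Notum, both inhibitors of the pathway. None of the 3 ligand genes, 6 receptors, 7 cytoplasmic components and 6 nuclear factors tested passed. The median difference, replacement minus control on the log2 scale, was 0.03 over the members and -0.02 over all genes, and 19 members lay above 0 and 18 below. In 19 of the 37 members the 3 replacement arrays lay all above or all below the 3 control arrays, against 36.6% of all genes. The calls depended on having both control replicates: without control 1 Apcdd1 was the one member still called (0.0847% of all genes were called), and without control 2 and control 3 none was (0.0308% of all genes). With no filter on dim probe sets Apcdd1 was again the one member called, when 0.89% of all 18193 genes tested were.

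**Figure D1:**
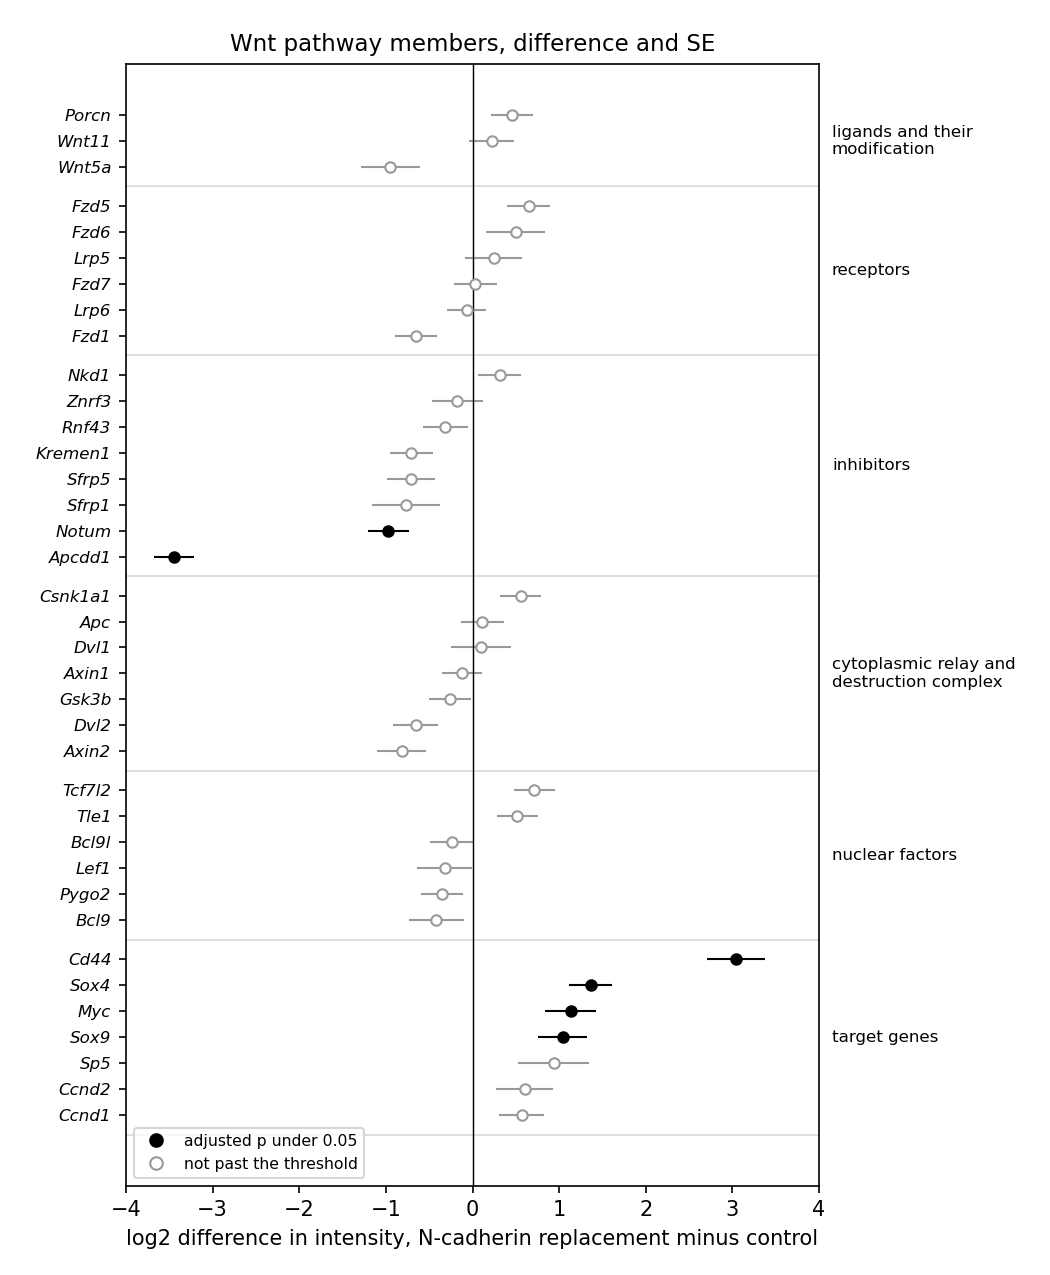
The log2 difference in intensity, replacement minus control, of the 37 members tested, grouped by role, with the SE of the limma fit as bars. Filled points passed an adjusted p of 0.05 over all genes: 4 target genes on the right, from Sox9 (1.04) to Cd44 (3.04), and the inhibitors Notum (-0.97) and Apcdd1 (-3.45, a bound) on the left.

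Among the target genes 4 of 7 rose. All 7 lay above 0, with a median of 1.04, although Ccnd1 and Ccnd2 had smaller differences than Tcf7l2 and Fzd5, which are members of other roles. Some Wnt targets are listed under other roles and lay below 0, among them Apcdd1 (-3.45, a bound), Axin2 (-0.81), Rnf43 (-0.32) and Znrf3 (-0.18). The same holds for Lgr5 (-0.53) of a second list described below, whereas the feedback inhibitor Nkd1 lay above 0 (0.31). Notum, the other member that fell (-0.97), is listed as an inhibitor. The count of 7 above 0 therefore covers only the genes listed as targets. In the same arrays the 5 measured proliferation markers (Mki67, Top2a, Cdk1, Pcna and Mcm2) summed to 3133 to 3628 in replacement arrays and 2292 to 2604 in control arrays, with none of the 5 past the threshold. Pcna added most to the sum on every array. The differences of the 5 were not all of 1 sign: Pcna (0.39), Mki67 (0.66), Top2a (0.67) and Cdk1 (0.85) lay above 0 and Mcm2 (-0.27) below. The groups did not overlap in any of the 5, as in 36.6% of all genes tested. For Top2a the direction depended on the probe set, as its 2 kept probe sets gave 0.67 and -0.94. The part of these markers in the target genes' differences was not tested. In tissue RNA such as this, more cells of a type and more RNA per cell cannot be told apart.

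Cd44, a hyaluronan receptor on the cell surface and a Wnt target in crypts, had intensities of 489, 717 and 613 in the replacement arrays, against 105, 50.8 and 50.2 in the control arrays. Every replacement array was thus far above every control array, and control 1 stood above the other controls. Cd44 was 8.23-fold higher in replacement arrays (log2 difference 3.04, SE 0.33, limma adjusted p = 8.39e-04). By the size of its difference it stood at place 44 of all genes tested. Its 3 kept probe sets gave 3.12, 3.04 and at least 2.74, and each passed when all probe sets were tested on their own, where 5.92% of probe sets did. The dimmest of the kept probe sets was under the floor in all control arrays, at 5.0, 0.7 and 3.8, and read 57.1, 146 and 148 in the replacement arrays, so that its difference is the bound. Without control 1 the Cd44 difference was 3.57 (limma adjusted p = 0.0644) and without control 2 and control 3 it was 2.51 (limma adjusted p = 0.0886).

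Sox4, a transcription factor of the SRY-related family, had 764, 1109 and 954 in the replacement arrays and 374, 332 and 368 in the control arrays. The groups did not overlap, and replacement 1 was the lowest of its group. Sox4 was 2.58-fold higher (log2 difference 1.36, SE 0.25, limma adjusted p = 0.0102). Its probe sets disagreed in size: of 8 probe sets 6 were kept, their differences ran from 0.03 to 1.69, and 2 passed on their own. With the mean of all its probe sets the difference was 0.84 (limma adjusted p = 0.0575). Its call was also lost without control 1 (1.41, limma adjusted p = 0.154), without control 2 and control 3 (1.32, limma adjusted p = 0.175) and without replacement 3 (1.35, limma adjusted p = 0.0624).

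Myc, the growth-promoting transcription factor, read 167, 317 and 223 in the replacement arrays, against 103, 105 and 104 in the control arrays. The control arrays lay close together, whereas replacement 2 stood above the others of its group. The difference was 1.13 on the log2 scale (SE 0.29, limma adjusted p = 0.0429), a 2.20-fold rise, from the only Myc probe set. Sox9, a transcription factor of crypt base and Paneth cells, had 81.3, 128 and 103 in the replacement arrays and 59.2, 39.6 and 44.0 in the control arrays. Its difference of 1.04 (SE 0.28) passed narrowly, at a limma adjusted p of 0.0495, and its other kept probe set gave 0.67. Both genes lost the call in the fits with a single control replicate (adjusted p 0.316 and 0.299 for Myc and 0.2 and 0.339 for Sox9, by limma), without replacement 2 (0.127 for Myc and 0.159 for Sox9) and without replacement 3 (0.146 for Myc and 0.16 for Sox9). Sox9 lost it as well without control 2 (limma adjusted p = 0.0582) or control 3 (limma adjusted p = 0.0505) alone.

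The cyclins D1 and D2, which drive entry into the cell cycle, did not pass. Ccnd1 had 407, 418 and 297 in the replacement arrays against 278, 222 and 227 in the control arrays, a log2 difference of 0.57 (SE 0.26, limma adjusted p = 0.214). The Ccnd1 groups did not overlap in any of its 3 probe sets, whose differences were 0.57, 0.82 and 0.83. Ccnd2 had 1679, 1624 and 1031 in the replacement arrays, against 1244 in control 1 and 700 and 690 in control 2 and control 3. Control 1 thus exceeded replacement 3, and the log2 difference was 0.60 (SE 0.33, limma adjusted p = 0.301). The 7 Ccnd2 probe sets gave 0.48 to 1.13, and 5 of them showed no overlap between the groups. Sp5, a zinc finger factor induced directly by TCF/LEF and beta-catenin in several tissues, was near the floor: 40.8, 44.7 and 8.5 in the replacement arrays and 3.9, 16.2 and 1.7 in the control arrays. Replacement 3 fell within the range of the controls, and the difference of 0.94 (SE 0.41) did not pass (limma adjusted p = 0.195). Without replacement 3 Sp5 passed, at 1.41 (SE 0.25, limma adjusted p = 0.035).

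**Figure D2:**
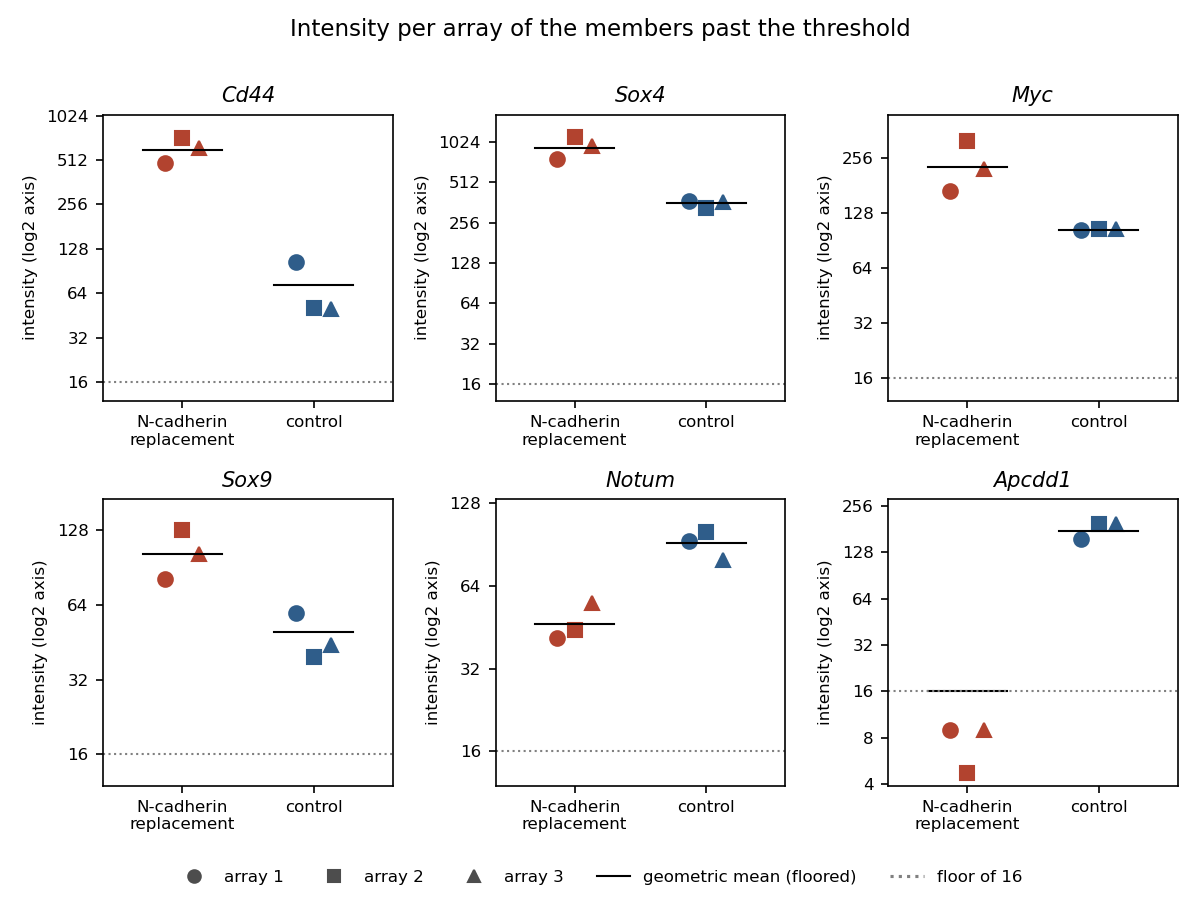
Intensity on each array, on a log2 axis, of the 6 members past the threshold, with replacement arrays left of control arrays, the geometric mean of the floored values as a bar (control 2 and control 3 averaged first) and the floor of 16 as a dotted line. The groups do not overlap in any of the 6 genes, and all 3 replacement arrays of Apcdd1 lie under the floor.

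Promoter sequences are shown for 4 members of this regulatory circuit: Cd44 and Sox4, the called members for which RefSeq's promoter table for GRCm38.p6 has an entry, and Sp5 and Axin2, which are widely used as direct readouts of TCF/LEF. Each run is the 150 bases just before an annotated start of the gene, 5′ to 3′ on the gene's strand, and capitals mark a match to a TCF/LEF motif. The first motif searched, on both strands, was ATCAAAG. The second motif, which differs from it in its first letter and so cannot lie at the same place on the same strand, was TTCAAAG.
Sp5 (chr2:70474773-70474922, + strand): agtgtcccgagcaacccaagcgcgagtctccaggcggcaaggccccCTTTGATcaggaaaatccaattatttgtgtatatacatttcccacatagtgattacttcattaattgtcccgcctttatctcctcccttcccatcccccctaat
Cd44 (chr2:102901666-102901815, - strand): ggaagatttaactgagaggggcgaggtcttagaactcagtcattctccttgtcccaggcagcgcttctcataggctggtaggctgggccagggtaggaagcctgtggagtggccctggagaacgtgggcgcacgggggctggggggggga
Sox4 (chr13:28953700-28953849, - strand): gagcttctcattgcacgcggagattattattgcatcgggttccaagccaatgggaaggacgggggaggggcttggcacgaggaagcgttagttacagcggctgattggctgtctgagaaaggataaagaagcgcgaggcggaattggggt
Axin2 (chr11:108920199-108920348, + strand): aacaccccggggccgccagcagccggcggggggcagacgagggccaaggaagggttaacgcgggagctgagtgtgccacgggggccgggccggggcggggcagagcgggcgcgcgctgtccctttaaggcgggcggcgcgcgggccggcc

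In these runs Sp5 alone holds a match, CTTTGAT, the first motif read on the other strand, which begins 104 bases before the start. Over the full windows of 300 bases (250 before and 50 after the start) 24 of the 43 members had a promoter in the table. Of their 33 promoters 2 held a match (6.06%), that of Sp5 and 1 of Wnt11 at 51 bases before the start. Among all 32851 promoters of that length 2842 did (8.65%). A match describes letters in this window and is not a bound site.

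The inhibitors held both members that fell. Of 11 inhibitors 8 were tested, 7 of these lay below 0 and the median difference was -0.71. Apcdd1, a membrane protein that binds Wnt and its receptors and is itself a Wnt target, read 9.0, 4.7 and 8.9 in the replacement arrays, against 156, 195 and 195 in the control arrays. All replacement arrays lay under the floor, so the change is known as a bound: the intensity was lower by at least 10.9-fold (fitted log2 difference -3.45, SE 0.23, limma adjusted p = 6.30e-05). With every replacement array set to the floor that group has no spread of its own, and the SE and p depend on the floor. The probe set may cross-hybridize, as its suffix marks, but both kept probe sets without such a suffix were lower too: one had 9.7, 13.1 and 6.1 in replacement arrays against 87.0, 104 and 134 in control arrays, the other 5.1, 1.5 and 10.1 in replacement arrays against 56.5, 57.8 and 58.2 in control arrays. A further probe set without a suffix was under the floor on all arrays, with no value above 13.2. Of 5 kept Apcdd1 probe sets 4 passed on their own. The remaining one read 41.9, 19.5 and 49.1 in replacement arrays and 86.7, 78.3 and 82.9 in control arrays, a smaller difference of -1.29 (limma adjusted p = 0.0978). The Apcdd1 call was lost without control 2 and control 3 (-3.29, limma adjusted p = 0.0572). With no floor a different probe set had the highest mean and stood for the gene, and its difference of -1.26 did not pass (limma adjusted p = 0.106).

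Notum, a secreted enzyme that inactivates Wnt ligands by removing their lipid, had 41.4, 44.4 and 55.3 in the replacement arrays and 93.5, 101 and 79.3 in the control arrays. No array crossed over, and the difference of -0.97 on the log2 scale (SE 0.24, limma adjusted p = 0.036) makes Notum 1.96-fold lower. With each probe set tested on its own its limma adjusted p was 0.0567. The Notum call was lost in either fit with a single control replicate (limma adjusted p 0.235 and 0.216), without control 2 (0.0582) and without replacement 1 (0.0509), 2 (0.115) or 3 (0.0723), while the difference stayed within -1.09 to -0.88.

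Other inhibitors had smaller differences that did not pass. Kremen1, a receptor for Dickkopf proteins, had 61.0, 44.8 and 53.6 in the replacement arrays against 95.1, 72.5 and 83.9 in the control arrays (-0.71, SE 0.25, limma adjusted p = 0.114). Sfrp5, a secreted protein that binds Wnt ligands, had 34.0, 23.7 and 31.7 in replacement arrays against 59.3, 42.9 and 35.7 in control arrays (-0.71, SE 0.28, limma adjusted p = 0.152). In both genes the groups did not overlap, but the 3 kept Kremen1 probe sets ran from -0.71 to -0.12. Sfrp1, of the same family, is made largely by stromal cells. It read 19.7, 15.5 and 11.4 in replacement arrays and 49.7 in control 1 against 18.4 and 10.7 in control 2 and control 3, the same control that had the highest mesenchymal marker sum, and the part of those cells in its difference of -0.77 (limma adjusted p = 0.276) was not tested. Rnf43 and Znrf3, membrane ubiquitin ligases that remove Frizzled receptors and are feedback targets, had differences of -0.32 (SE 0.26) and -0.18 (SE 0.29), with overlapping groups. Nkd1, a feedback inhibitor that binds Dishevelled, read 20.3, 18.2 and 25.3 in the replacement arrays against 18.0, 6.4 and 10.5 in the control arrays (0.31, SE 0.25, limma adjusted p = 0.492). Wif1 and Dkk2, secreted inhibitors, had no intensity above 7.0 and 8.3. Dkk3 reached the floor on 1 array, replacement 3, at 27.0.

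**Figure D3:**
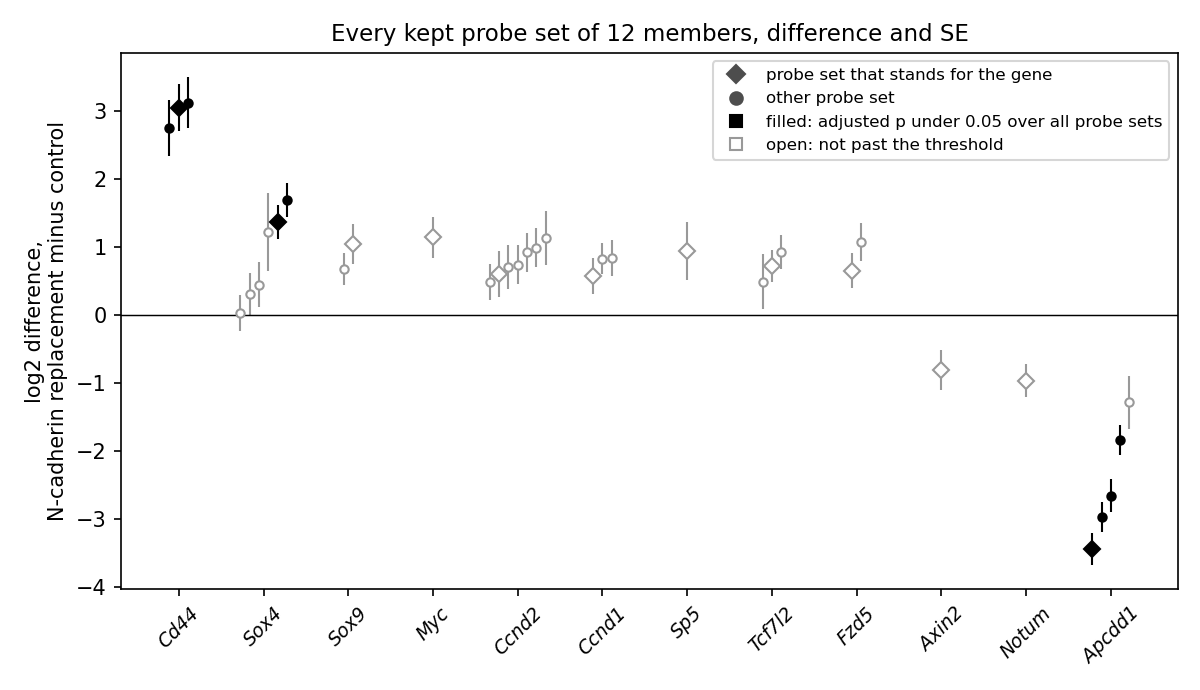
The log2 difference, replacement minus control, with its SE, for every kept probe set of 12 members, diamonds marking the probe set that stands for the gene and filled symbols those past an adjusted p of 0.05 over all probe sets. The Cd44 probe sets lie at 2.74 (a bound, its control arrays being under the floor), 3.04 and 3.12, those of Sox4 spread from 0.03 to 1.69 and those of Apcdd1 from -3.45 to -1.29, while the 7 Ccnd2 probe sets (0.48 to 1.13) are all above 0 with none past the threshold.

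Among the genes of the cytoplasmic relay none of 7 passed. Axin2 is the scaffold of the destruction complex whose transcription rises with Wnt signals and feeds back on them. It had 215, 165 and 138 in the replacement arrays, against 359, 240 and 256 in the control arrays. Every replacement array was below every control array, and the log2 difference was -0.81 (SE 0.28, limma adjusted p = 0.111). Its direction was thus opposite to that of the 7 listed target genes. Axin1, the scaffold that is made constantly, had 137, 146 and 172 in replacement arrays and 157, 182 and 161 in control arrays (-0.12, SE 0.23). Apc, the other scaffold, had 346, 322 and 336 in replacement arrays and 369, 275 and 245 in control arrays (0.11, SE 0.25), and its 3 kept probe sets gave -0.48, 0.11 and 0.69. The kinase Gsk3b had 547, 414 and 431 in replacement arrays against 604, 511 and 493 in control arrays (-0.26, SE 0.25). Csnk1a1, the kinase that makes the first mark on beta-catenin, had 1717, 2146 and 2136 in replacement arrays and 1268, 1405 and 1479 in control arrays (0.56, SE 0.24, limma adjusted p = 0.185). Its groups did not overlap, but 2 of its 4 kept probe sets had differences below 0. Dvl2, a Dishevelled protein that carries the signal from the receptors, had 36.1, 26.8 and 31.5 in replacement arrays and 42.0, 60.4 and 55.0 in control arrays (-0.66, SE 0.26, limma adjusted p = 0.151). For Dvl1 the direction depended on the probe set: the brighter gave 0.09 and the other -0.39.

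The 6 receptors did not pass either. Fzd5, a Frizzled receptor of intestinal epithelium, had 440, 522 and 485 in the replacement arrays, against 360, 268 and 255 in the control arrays. The groups did not overlap, with a log2 difference of 0.65 (SE 0.25, limma adjusted p = 0.141), and its second probe set gave 1.06 (SE 0.28, limma adjusted p = 0.0654). Fzd1 lay the other way, at 53.2, 58.2 and 60.7 in replacement arrays and 105, 77.8 and 76.3 in control arrays (-0.65, SE 0.24, limma adjusted p = 0.136). Fzd6 had 53.0 in replacement 1 but 103 and 109 in replacement 2 and replacement 3, with controls at 68.7, 55.1 and 48.3 (0.50, SE 0.34). Fzd7 (0.03, SE 0.25) and the co-receptors Lrp5 (0.24, SE 0.33) and Lrp6 (-0.07, SE 0.23) had overlapping groups.

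Of the ligand genes, Wnt5a acts mostly outside the beta-catenin branch and comes largely from stromal cells. It had 16.6, 29.0 and 29.1 in the replacement arrays, against 35.5, 60.2 and 61.5 in the control arrays. Its groups did not overlap, and the log2 difference was -0.95 (SE 0.34, limma adjusted p = 0.119), although its other kept probe sets gave -0.26 and -0.32. Control 1, the array with most mesenchymal signal, was the lowest control for Wnt5a, and the part of stromal cells in the difference was not tested. Porcn, the enzyme that attaches the lipid to Wnt ligands, read 19.9, 19.9 and 26.6 in replacement arrays and lay under the floor in all control arrays, a log2 difference of at least 0.45 (SE 0.24, limma adjusted p = 0.294). Wnt11 stayed near the floor, at most 24.4 in replacement arrays and 17.0 in control arrays. Wnt3, a ligand of Paneth cells, had no intensity above 5.4.

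Of the nuclear factors Tcf7l2, the main TCF factor of intestinal epithelium, came nearest to the threshold. It had 177, 184 and 198 in the replacement arrays against 127, 86.2 and 118 in the control arrays, without overlap (0.72, SE 0.23, limma adjusted p = 0.0943). Its other kept probe sets gave 0.92 (limma adjusted p = 0.0767) and, with overlapping groups, 0.49 (limma adjusted p = 0.546). With all 6 arrays as separate replicates Tcf7l2 passed (0.77, limma adjusted p = 0.0287). That fit counts the close to identical control arrays separately, and 18.1% of all genes passed in it, against 9.12% with those arrays averaged. The pass is therefore not counted as a call. Tle1, a co-repressor that binds TCF factors, had 197, 246 and 242 in replacement arrays and 156, 169 and 156 in control arrays (0.52, SE 0.23, limma adjusted p = 0.213), and its second probe set gave 0.58. The co-activators Bcl9 (-0.42, SE 0.31), Bcl9l (-0.23, SE 0.26) and Pygo2 (-0.35, SE 0.25), which link beta-catenin to chromatin, had overlapping groups. Lef1 was dim, at 14.1 to 32.9 in replacement arrays and 24.1 to 31.3 in control arrays. Tcf7l1 had no intensity above 11.2.

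The sexes were unevenly spread over the groups, so each difference was also taken within females (replacement 2 and replacement 3 against control 1) and within males (replacement 1 against control 2 and control 3). The 6 called members had the same sign in both, which was fixed in advance because their groups do not overlap. Cd44 differed by 2.66 among female and 3.28 among male arrays, Sox4 by 1.46 and 1.13, Myc by 1.37 and 0.68 and Sox9 by 0.95 and 0.96. Apcdd1 differed by -3.29 among female and -3.61 among male arrays, both bounds, and Notum by -0.92 and -1.11. With sex as a term of the fit the 6 called members were the same 6. Of the 37 members 27 had 1 sign in both sexes, including all 7 target genes and 7 of 8 inhibitors, and the other 10 did not. For the 19 members without overlap of the groups, 5 target genes and 5 inhibitors among them, the sign could not have differed. Ccnd2 differed by 0.06 among female and 1.27 among male arrays, Axin2 by -1.25 and -0.21, and Wnt5a by -0.29 and -1.87. Each female value rests on 1 control replicate, and each male value on 1 replacement and 1 control replicate, as control 2 and control 3 count as 1. The difference between the sexes was not tested.

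**Figure D4:**
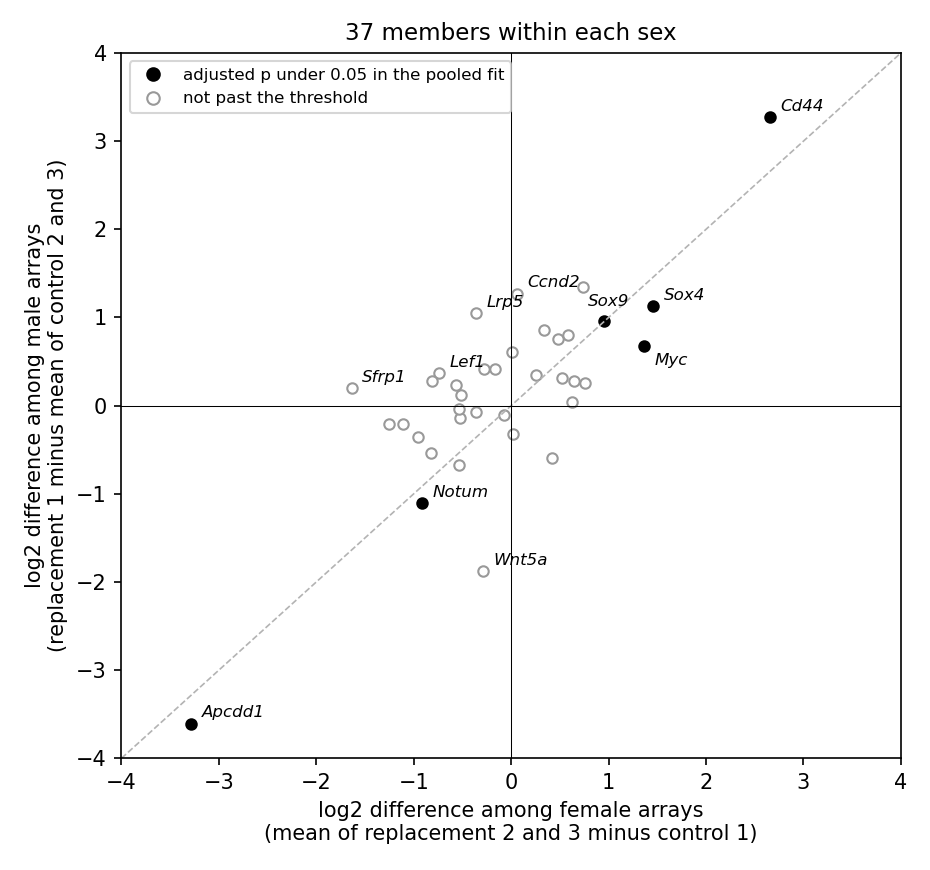
The log2 difference, replacement minus control, of each of the 37 members among female arrays (horizontal axis) and among male arrays (vertical axis), with the line of equal values dashed. The 6 members past the threshold in the pooled fit (filled) run from Apcdd1 (-3.29 and -3.61) to Cd44 (2.66 and 3.28), with Myc at 1.37 and 0.68. Sfrp1, Wnt5a, Lrp5, Lef1 and Ccnd2 lie farther from the line. Each group holds both sexes and a small spread within groups helps a gene pass, so the place of the 6 is partly fixed by the call.

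A second list held 75 other genes of the pathway, of which 48 were tested, 6 rose and 2 fell (16.7%, against 9.12% of all genes). It too was chosen with earlier results of these data known. The co-repressor Tle3 fell most, with 192, 150 and 140 in the replacement arrays against 483, 581 and 602 in the control arrays. It was 3.36-fold lower (log2 difference -1.75, SE 0.25, limma adjusted p = 0.00297), and all 3 of its kept probe sets passed on their own. The receptor Fzd4 was also lower, with 45.5, 43.1 and 44.2 in replacement arrays and 92.5, 83.1 and 72.4 in control arrays (-0.94, SE 0.23, limma adjusted p = 0.0343). Among the genes that rose, the list holds Tiam1, Edn1 and Mmp7 as targets. Tiam1 (1.51, SE 0.36, limma adjusted p = 0.032) is an activator of the GTPase Rac. Edn1 (1.38, SE 0.24, limma adjusted p = 0.00738) is the peptide endothelin and Mmp7 (1.30, SE 0.34, limma adjusted p = 0.044) a protease of Paneth cells. Of the 7 targets tested in this list 5 lay above 0 and 2 below, Ascl2 (-0.18) and Jun. For Jun the difference was -0.89 (SE 0.25, limma adjusted p = 0.0551), without overlap of the groups. Mmp7 read 556, 471 and 365 in replacement arrays against 268, 156 and 105 in control arrays. The Paneth cell product Lyz1 had a difference of -0.53 (limma adjusted p = 0.425), but its 3 kept probe sets ran from -0.53 to 0.43. Itln1, also a Paneth cell marker, had a difference of -1.09 (limma adjusted p = 0.158), with overlapping groups. The 3 measured Paneth cell markers, Mmp7, Lyz1 and Itln1, summed to 1939 to 3396 in replacement arrays. Their sum was 5654 in control 1 against 2420 and 2511 in control 2 and control 3. The part of these cells in the Mmp7 difference was not tested. The ligand Wnt10a (0.996, SE 0.24, limma adjusted p = 0.0308) and Frat2 (0.92, SE 0.24, limma adjusted p = 0.044), which binds Gsk3b, rose too. The R-spondin Rspo2 (0.83, SE 0.23) passed narrowly, at a limma adjusted p of 0.0495. All of these were dim: Wnt10a had 39.7, 35.2 and 40.3 in replacement arrays against 21.6, 17.0 and 17.2 in control arrays. With each probe set tested on its own Edn1 and Wnt10a passed, and Tiam1, Mmp7, Rspo2 and Frat2 did not. None of these 8 calls held in the fits with a single control replicate.

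Ctnnb1, the gene of beta-catenin itself, had 4249, 3580 and 4740 in the replacement arrays and 3927, 3708 and 3840 in the control arrays (0.11, SE 0.24, limma adjusted p = 0.828), with the highest of its 3 probe set differences at 0.71. The stem cell receptor Lgr5, a Wnt target that binds R-spondins, had 76.1, 96.4 and 118 in the replacement arrays against 150.5, 122.8 and 129 in the control arrays (-0.53, SE 0.26, limma adjusted p = 0.256). Its groups did not overlap in this probe set, and its other kept probe set gave a difference of -0.10.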

How the data were processed

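Per the values themselves, the authors deposited intensities on a linear scale, 1 per probe set and array, whose mean without the lowest and highest 2% is 100 on every array. The submitters' processing notes name GCRMA and limma without versions, and GCRMA gives values on a log2 scale, whereas the deposited intensities are linear, so which method made them is unknown here. Values under 16 were raised to 16 and all were put on the log2 scale. The floor makes differences of dim genes smaller, and where all arrays of a group lay under it the fold is a bound. The probe set with the highest mean stood for its gene (34945 probe sets had 1 gene symbol, 34741 of them matched to GRCm38.p6 names by Entrez identifier). Array controls were left out. Probe sets of different genes are not compared in level.

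Differences were fitted over 12994 genes by lmFit and eBayes of limma 3.58.1 (R 4.3.3), with Benjamini-Hochberg adjustment, and again over 22603 probe sets. Control 2 and control 3 were averaged: their SD of 0.115 lay within the range of 9 hybridization control probe sets over all array pairs (0.0591 to 0.14), though above their value for that pair (0.0747). Same-numbered arrays did not deviate together (correlations -0.0165, -8.19e-04 and -0.0549), so numbers were not used as pairs. Alternatives covered the replicates, scaling, floor, filter, choice of probe set, weights and a sex term. The fit was tested on simulated data. Arrays have no read depth, and their number limits the precision. The members, lists and named genes (every member, and called genes of the second list with Ctnnb1, Lgr5, Jun and Ascl2) were chosen with earlier results of these data known. Figures were drawn with matplotlib 3.10.9.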

Additional observations from a re-analysis of the deposited data

How the results depend on the processing

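Counts are of members higher and lower (4 and 2 as reported, where 9.12% of all genes were called). With all 6 arrays as separate replicates they were 6 and 5 (18.1% of all genes were called). With the replicate number as a block on those arrays they were 5 and 4 (16.2% of all genes). Both fits count control 2 and control 3 separately, and the added members were among Axin2, Dvl2, Fzd5, Kremen1, Tcf7l2 and Wnt5a. Scaling to the array medians gave 2 and 1 (Apcdd1, Cd44 and Sox4, with 6.36% of all genes called). No filter gave 0 and 1 (0.89% of all genes) and no floor 2 and 0 (6.3%). The mean of all probe sets gave 2 and 2 (Apcdd1, Cd44, Myc and Notum, with 8.69% of all genes called). Leaving out suffixed probe sets gave 2 and 1 (8.17%), as did every probe set on its own (5.92% of probe sets). Leaving out control 2, control 3 or 1 replacement array gave 2 to 4 higher and 1 to 2 lower (2.88% to 12.8% of all genes). Fits with a single control replicate, where nearly all calls were lost, are given above. Quantile normalization (8.74% of all genes), a filter at 64 (15.6%), array weights (13.9%), other eBayes options (10.9%) and a sex term (10.3%) gave 4 and 2. The same shares of all genes stand beside the counts of the second list. Of the second list (6 and 2) the counts were 7 and 6 with 6 arrays, 7 and 4 with the block, 4 and 1 with median scaling, 0 and 0 with no filter, 3 and 3 with the filter at 64, 1 and 1 with no floor, 2 and 1 with every probe set, and 0 to 7 and 0 to 6 without replicates. The sign held under every alternative run for 32 of 37 members, called ones included. It turned, never past the threshold, for Dvl1 (-0.15 with the mean of probe sets, -0.39 without suffixed ones, -0.015 with a sex term, and -0.12 to 0.46 without replicates), Fzd7 (-0.014 with quantile normalization, -0.034 to 0.28 without 1 array, -0.21 without control 2 and control 3), and without replicates for Apc (-0.14 to 0.37), Lrp5 (-0.15 to 0.64) and Znrf3 (-0.40 to 0.078 without 1 array, -0.43 without control 2 and control 3). The cause was not tested. Signal near the floor limits Sp5, Nkd1, Lef1, Porcn, Sfrp1 and the ligand genes.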
